A study of Mus musculus with 6 samples.

Results

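The AP-1 and immediate-early genes described here are *Fos*, *Fosb*, *Fosl2*, *Jun*, *Junb*, *Jund*, *Egr1*, *Atf3*, *Ier2* and *Dusp1*. These 10 genes were taken by symbol from the 20409 features of a count table, and all 10 had a row and passed the filter on low counts. The table holds poly(A) RNA sequenced from the villus epithelium of the mouse duodenum, with 1 library per mouse. Double mutant villi (DMV, 3 mice) came from Smad4 fl/fl; Ctnnb exon3 fl/wt; Villin-CreERT2 mice in a C57BL6-enriched background. Tamoxifen was injected intraperitoneally on consecutive days to delete *Smad4* and to stabilize β-catenin, and the villi were collected about a week after induction. Wild-type villi (WTV, 3 mice) came from littermates that were not injected, so the effect of the recombined alleles and that of tamoxifen cannot be told apart. The Villin promoter drives Cre in the whole intestinal epithelium, and the mutation was therefore not limited to the villi. Ages were matched between the groups and are not given in the sources used here. Each group held 1 male (mouse 1) and 2 females (mice 2 and 3). Nothing else in the labels ties a mouse of one group to a mouse of the other.

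AP-1 is a dimer of basic leucine zipper proteins. FOS proteins bind DNA only when paired with a JUN protein, whereas JUN proteins can also pair with each other or with ATF proteins. Immediate-early genes are transcribed within minutes of a stimulus without new protein synthesis, mainly through MAP kinases acting on SRF and ternary complex factors and on CREB, and their mRNAs are short-lived. In the intestine, AP-1 and EGR1 are known from growth factor responses, wound repair and tumors with active Wnt signaling, and isolating the epithelium is itself a stimulus to which they can respond.

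Promoter bases are shown for the 4 members with the largest falls, with matches to elements of inducible promoters and of the mutated pathways. RefSeq promoter windows (GRCm38.p6, 250 bases before to 50 after the start) were found for 8 of the 10 members, without *Egr1* and *Ier2*. The 250 bases before the start are printed 5′ to 3′ on the strand of the gene. Capitals mark matches to any motif searched. The windows are chr12:85473640-85473889 (plus strand) for *Fos*, chr7:19310046-19310295 (minus) for *Fosb*, chr5:32136222-32136471 (plus) for *Fosl2* and chr4:95052223-95052472 (minus) for *Jun*.
Fos: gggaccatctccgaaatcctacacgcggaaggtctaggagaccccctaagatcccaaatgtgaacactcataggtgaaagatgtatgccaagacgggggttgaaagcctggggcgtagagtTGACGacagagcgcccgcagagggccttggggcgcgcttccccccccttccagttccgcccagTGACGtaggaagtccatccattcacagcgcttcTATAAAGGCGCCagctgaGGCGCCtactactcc
Fosb: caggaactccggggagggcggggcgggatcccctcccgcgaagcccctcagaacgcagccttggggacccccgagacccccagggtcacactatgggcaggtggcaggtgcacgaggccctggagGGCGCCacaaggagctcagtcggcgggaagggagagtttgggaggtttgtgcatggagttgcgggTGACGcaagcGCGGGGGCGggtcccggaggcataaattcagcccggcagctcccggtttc
Fosl2: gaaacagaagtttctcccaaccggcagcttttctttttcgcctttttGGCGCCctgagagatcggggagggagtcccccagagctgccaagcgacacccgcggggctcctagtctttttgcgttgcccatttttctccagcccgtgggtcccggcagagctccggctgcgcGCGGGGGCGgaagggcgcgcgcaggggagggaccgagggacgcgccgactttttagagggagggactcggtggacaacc
Jun: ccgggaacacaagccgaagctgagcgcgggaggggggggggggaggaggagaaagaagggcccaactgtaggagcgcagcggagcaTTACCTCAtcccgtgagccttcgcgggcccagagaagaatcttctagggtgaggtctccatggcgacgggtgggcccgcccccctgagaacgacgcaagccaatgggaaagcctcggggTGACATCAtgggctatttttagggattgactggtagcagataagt

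All motifs were searched on both strands of the 300-base windows, apart from TATAAA, which was searched on the strand of the gene. The core of the cAMP response element, TGACG, was present in *Fos*, *Fosb*, *Junb*, *Atf3* and *Dusp1* (5 of 8), and in 20.8% of all 32851 promoters. The full element TGACGTCA, which contains that core on either strand, was present in *Dusp1* alone among the members and in 1.79% of promoters. The *Jun* window held both letterings of the element through which the gene is known to respond to AP-1 itself, TTACCTCA from base -164 to -157 and TGACATCA from base -45 to -38 relative to the start. Either lettering was found in 4.47% of promoters. An EGR site (GCGGGGGCG or GCGTGGGCG, in 3.47% of promoters) lay at -50 to -42 in *Fosb* and at -79 to -71 in *Fosl2*. GGCGCC, letters bound by BMP-activated SMADs, was present in *Fos* (2 matches), *Fosb*, *Fosl2* and *Dusp1* (4 of 8), and in 11.9% of promoters. TATAAA (8.32% of promoters) was present in *Fos* at -33 to -28 and in *Junb* at 1 to 6, after the start. TGACTCA or TGAGTCA (5.2%), the TCF letters CTTTGAA or CTTTGAT (8.65%) and the CArG box (1.63%) had no match in these 8 windows, which end short of the serum response element known farther upstream of *Fos*. A match is a description of the letters, and binding was not measured.

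Expression is given as normalized counts, that is CPM (counts relative to library size) after TMM scaling in edgeR. The libraries held between 19678507 and 26337318 counts, so 3 counts corresponded to 0.125 to 0.163 CPM on this scale, a floor that covers counting error only. The groups were compared with edgeR's quasi-likelihood test over 13346 genes, and a gene was called at a Benjamini-Hochberg adjusted p under 0.05. *Smad4* itself measured 119.8, 180.1 and 144.5 CPM in WTV mice 1 to 3 and 26.05, 36.83 and 32.13 in DMV mice (log2 fold change -2.22, adjusted p = 0.0001446), lower in every DMV mouse as the labels state. WTV mouse 1 stood apart from the other WTV mice. On the second principal component, with 18.1% of the variance, it lay at 54.97 and they lay at -35.18 and -34.54. Its summed goblet cell markers were 125.4 CPM against 11620 and 11040. Member and marker results that depend on this mouse are therefore given with and without it.

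Of the 10 genes, 7 fell in DMV, none rose and 3 did not pass the test. Across all tested genes 36.8% were called, 19.7% higher and 17.0% lower. The median log2 fold change was -0.63 over the 10 members and 0.02 over all tested genes. Values of the groups did not overlap for 9 members, 8 of them lower and 1 higher in DMV, against 52.4% of all tested genes. *Fosb* was the only member lower by a log2 fold change of at least 2, as were 2.26% of all tested genes. Summed over the members, expression was 1026, 1327 and 1177 CPM in the WTV mice and 549.1, 578.9 and 621 CPM in the DMV mice. In bulk RNA, fewer cells of a type and less RNA per cell cannot be told apart.

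**Figure D1:**
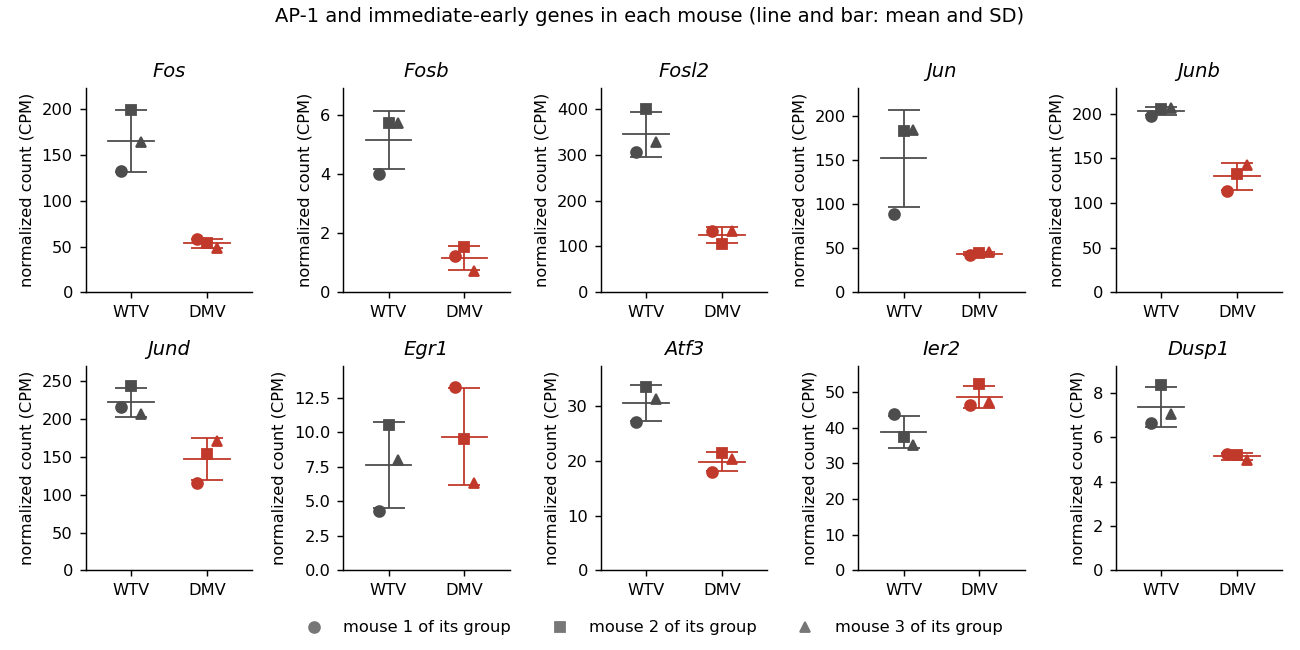
Normalized counts (CPM, vertical axis from 0) of the 10 genes in each mouse of WTV (grey) and DMV (red), where the marker shape gives the mouse number within its group, the long line the mean and the bars the SD (n = 3). Only the groups of *Egr1* overlap, *Ier2* is the gene higher in every DMV mouse, and WTV mouse 1 (circle) is the lowest of its group for 8 genes.

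All 3 FOS family members fell. *Fos* (ENSMUSG00000021250, mm9 chr12:86814840-86818223, plus strand, 4 exons), the inducible partner that gives AP-1 its strongest transactivation, measured 132.2, 199.8 and 164.7 CPM in WTV and 58.73, 53.43 and 48.79 CPM in DMV. The highest DMV mouse was thus well below the lowest WTV mouse. Means were 165.6 ± 33.8 and 53.7 ± 5.0 CPM (SD, n = 3), a log2 fold change of -1.63 ± 0.16 (SE; 95% interval -1.9965 to -1.2543, adjusted p = 0.0002934, edgeR). Of the tested genes, 3.6% had a lower log2 fold change.

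*Fosl2* (ENSMUSG00000029135, mm9 chr5:32438845-32460204, plus strand), which encodes FRA2, a FOS protein without the strong activation domain of FOS, gave 306.9, 399.8 and 329.0 CPM in WTV and 134.6, 105.1 and 134.5 CPM in DMV, with no overlap. The log2 fold change was -1.47 ± 0.15 (95% interval -1.81 to -1.13, adjusted p = 0.0003004, edgeR).

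*Fosb* (ENSMUSG00000003545, mm9 chr7:19888070-19895394, minus strand) had the lowest level per kb of exon among the members. It measured 3.999, 5.712 and 5.712 CPM in WTV and 1.221, 1.531 and 0.712 CPM in DMV, from 96, 105 and 113 counts against 26, 33 and 15 counts. All values were above the floor, and every DMV mouse was below every WTV mouse. Its log2 fold change of -2.15 ± 0.35 was the lowest of the members, with the widest interval among the 7 called (-2.94 to -1.36, adjusted p = 0.002146, edgeR). *Fosl1*, which encodes FRA1, averaged 0.0544 CPM in WTV and 0.0475 CPM in DMV, did not pass the filter and was not tested.

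The JUN family fell by unequal amounts. *Jun* (ENSMUSG00000052684, mm9 chr4:94715725-94718913, minus strand, 1 exon), the partner most often paired with FOS, measured 88.1, 183.2 and 183.5 CPM in WTV and 42.01, 44.11 and 45.14 CPM in DMV. WTV mouse 1 lay between the other WTV mice and the DMV mice, which were close together. The log2 fold change was -1.79 ± 0.27 (95% interval -2.42 to -1.17, adjusted p = 0.002203, edgeR) and -2.07 without WTV mouse 1. *Jun* shares 232 exonic bases with the antisense transcript BC042782, which had 3 to 18 counts per mouse.

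*Junb* (ENSMUSG00000052837, mm9 chr8:87500811-87502617, minus strand), which can replace JUN in the dimer and restrain it, measured 197.6, 205.1 and 206.0 CPM in WTV and 113.6, 132.5 and 142.9 CPM in DMV. The WTV mice differed little and the groups did not overlap. The log2 fold change was -0.65 ± 0.11 (95% interval -0.91 to -0.39, adjusted p = 0.003256, edgeR).

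*Jund* (ENSMUSG00000071076, mm9 chr8:73221638-73224515, plus strand), the JUN gene that is broadly expressed without stimulation, measured 215.4, 244.0 and 206.5 CPM in WTV and 116.0, 153.8 and 170.4 CPM in DMV. The groups did not overlap, but the gap between them was smaller than the spread within DMV. Its log2 fold change was -0.60 ± 0.15 (95% interval -0.95 to -0.25, adjusted p = 0.01624, edgeR). Without WTV mouse 2 the call was lost, with an adjusted p of 0.05915, and over all alternatives the adjusted p ran from 0.002092 to 0.05915. *Jund* shares 543 exonic bases with Gm11175 on the other strand, which had no row in the table, and the strand setting of the counting is not given in the sources used here.

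*Atf3* (ENSMUSG00000026628, mm9 chr1:192994175-193007219, minus strand), a stress-induced partner of JUN that often represses, measured 27.08, 33.46 and 31.34 CPM in WTV and 17.98, 21.47 and 20.32 CPM in DMV. Again no values overlapped, and the log2 fold change was -0.62 ± 0.14 (95% interval -0.93 to -0.31, adjusted p = 0.00815, edgeR).

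*Egr1* (ENSMUSG00000038418, mm9 chr18:35020861-35024638, plus strand), a zinc finger factor induced through SRF, was not called. It measured 4.332, 10.55 and 8.037 CPM in WTV and 13.29, 9.508 and 6.313 CPM in DMV. The groups overlapped, with the male mouse lowest in WTV and highest in DMV. The log2 fold change was 0.35 ± 0.37 (adjusted p = 0.4877, edgeR), and its 95% interval ran from -0.49 to 1.19. That interval lay above those of *Fos*, *Fosb*, *Fosl2* and *Jun*, but overlapped those of *Junb*, *Jund* and *Atf3*. The value itself rested on single mice, being 0.06 without WTV mouse 1, 0.06 without DMV mouse 1, 0.58 without DMV mouse 3 and 0.65 without WTV mouse 2, and it passed the test in none of these fits.

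*Ier2* (ENSMUSG00000053560, mm9 chr8:87185230-87186751, minus strand, 1 exon), an immediate-early nuclear protein, was the member whose DMV values were all above the WTV values, at 43.78, 37.26 and 35.13 CPM in WTV and 46.43, 52.22 and 47.09 CPM in DMV. The difference did not pass the test (log2 fold change 0.33 ± 0.13, 95% interval 0.04 to 0.61, adjusted p = 0.0711, edgeR). It passed without WTV mouse 1 (0.42, adjusted p = 0.02965), and it passed when counts were scaled by library size alone (0.52, adjusted p = 0.008594), which moved the median of all tested genes to 0.22. Over all alternatives its adjusted p ran from 0.008594 to 0.2148.

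*Dusp1* (ENSMUSG00000024190, mm9 chr17:26642535-26645464, minus strand), a phosphatase that switches off the MAP kinases that induce it, measured 6.665, 8.378 and 7.076 CPM in WTV and 5.258, 5.195 and 4.984 CPM in DMV. The values did not overlap, with a log2 fold change of -0.52 ± 0.19 (95% interval -0.95 to -0.09, adjusted p = 0.06107, edgeR). Without WTV mouse 1 it was -0.59 with an adjusted p of 0.04435, and over all alternatives the adjusted p ran from 0.04435 to 0.2176.

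Leaving out WTV mouse 1 thus gave 9 called members, 8 lower and 1 higher, and leaving out WTV mouse 2 gave 6. WTV mouse 1 was the lowest of its group for 8 of the 10 members and WTV mouse 2 the highest for 7, whereas no DMV mouse held more than 5 lowest or 4 highest values. *Fos*, *Fosb*, *Fosl2*, *Jun*, *Junb* and *Atf3* were called whichever mouse was left out. Scaling by library size alone also gave 7 called members, 6 lower and 1 (*Ier2*) higher. *Jund* lost its call there (-0.41, adjusted p = 0.05893). Over all genes this scaling gave 3732 higher and 1425 lower calls, against 2632 higher and 2273 lower with TMM.

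**Figure D2:**
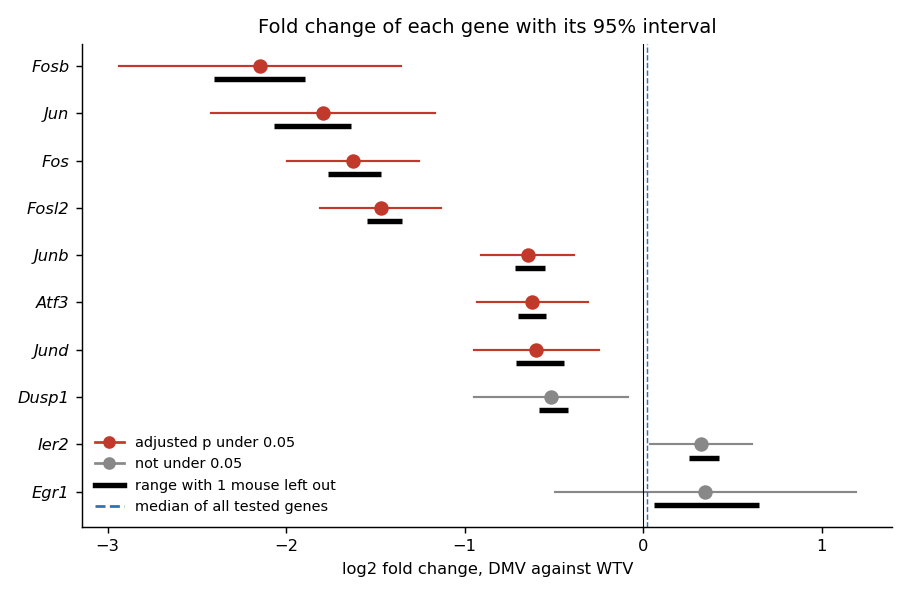
Log2 fold change of DMV against WTV (horizontal axis) for each gene, with its 95% interval from edgeR (thin line), the range of values when any 1 mouse was left out (thick black line) and the median of all tested genes (dashed line, 0.02). The intervals of *Fosb*, *Jun*, *Fos* and *Fosl2* lie below -1, while those of *Junb*, *Atf3* and *Jund* lie between -1 and 0.

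The falls of *Fos*, *Fosb*, *Fosl2* and *Jun* (log2 fold changes -2.15 to -1.47) and those of *Junb*, *Atf3* and *Jund* (-0.65 to -0.60) formed separate sizes, although the difference between the sizes was not tested. Ratios within a mouse do not depend on library scaling. On a scale of CPM per kb of exon, *Jun* relative to *Junb* was 0.253, 0.506 and 0.505 in WTV and 0.210, 0.189 and 0.179 in DMV. *Fos* relative to *Junb* was 0.514, 0.748 and 0.614 in WTV and 0.397, 0.310 and 0.262 in DMV. Neither ratio overlapped between the groups, and in both WTV mouse 1 was the WTV mouse nearest to DMV.

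Levels per kb set the genes in order within a group. In WTV the order was *Junb* (112.3 ± 2.5 CPM/kb), *Jund* (77.1 ± 6.8), *Fos* (70.4 ± 14.4), *Fosl2* (59.0 ± 8.3), *Jun* (47.5 ± 17.2), *Ier2* (25.4 ± 3.0), *Atf3* (15.4 ± 1.6), *Dusp1* (2.73 ± 0.33), *Egr1* (2.47 ± 1.01) and *Fosb* (1.37 ± 0.26). From *Jund* to *Ier2* each gene overlapped the next, as did *Dusp1*, *Egr1* and *Fosb*, so only *Junb*, *Ier2* and *Atf3* were separated from the gene after them. In DMV the order was *Junb* (71.8 ± 8.2 CPM/kb), *Jund* (51.0 ± 9.7), *Ier2* (31.9 ± 2.1), *Fos* (22.8 ± 2.1), *Fosl2* (21.3 ± 2.9), *Jun* (13.7 ± 0.5), *Atf3* (10.0 ± 0.9), *Egr1* (3.13 ± 1.13), *Dusp1* (1.91 ± 0.05) and *Fosb* (0.308 ± 0.110). Only *Fos* and *Fosl2* overlapped there. By its mean, *Ier2* stood below *Fos*, *Fosl2* and *Jun* in WTV and above them in DMV.

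The FOS genes together (*Fos*, *Fosb* and *Fosl2*) measured 109.7, 154.8 and 127.7 CPM/kb in WTV and 48.28, 41.08 and 43.9 CPM/kb in DMV. The JUN genes together measured 211.8, 255.8 and 243.3 CPM/kb in WTV and 116.3, 140.6 and 152.4 CPM/kb in DMV. Neither sum overlapped between the groups. The ratio of FOS to JUN mRNA was 0.518, 0.605 and 0.525 in WTV and 0.415, 0.292 and 0.288 in DMV, so FOS mRNA was lower than JUN mRNA in every mouse, and its level relative to JUN was lower in each DMV mouse than in any WTV mouse.

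*Fos* held 53.7% ± 2.1 of the FOS sum in WTV and 51.4% ± 4.0 in DMV, and *Fosl2* held 45.3% ± 2.2 and 47.9% ± 4.3 (SD, n = 3), each difference being smaller than the SD between the DMV mice. Within the JUN genes, *Jun* held 13.04, 22.46 and 23.65% in WTV and 11.32, 9.839 and 9.287% in DMV, without overlap, though WTV mouse 1 came within reach of the DMV mice. *Junb* held 47.6% ± 3.7 in WTV and 52.7% ± 1.2 in DMV, and *Jund* held 32.7% ± 2.9 and 37.2% ± 2.2. These sums, ratios and shares are given as descriptions with no test. The smallest p that an exact permutation test (two-sided) allows with 3 mice in each group is 0.1.

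**Figure D3:**
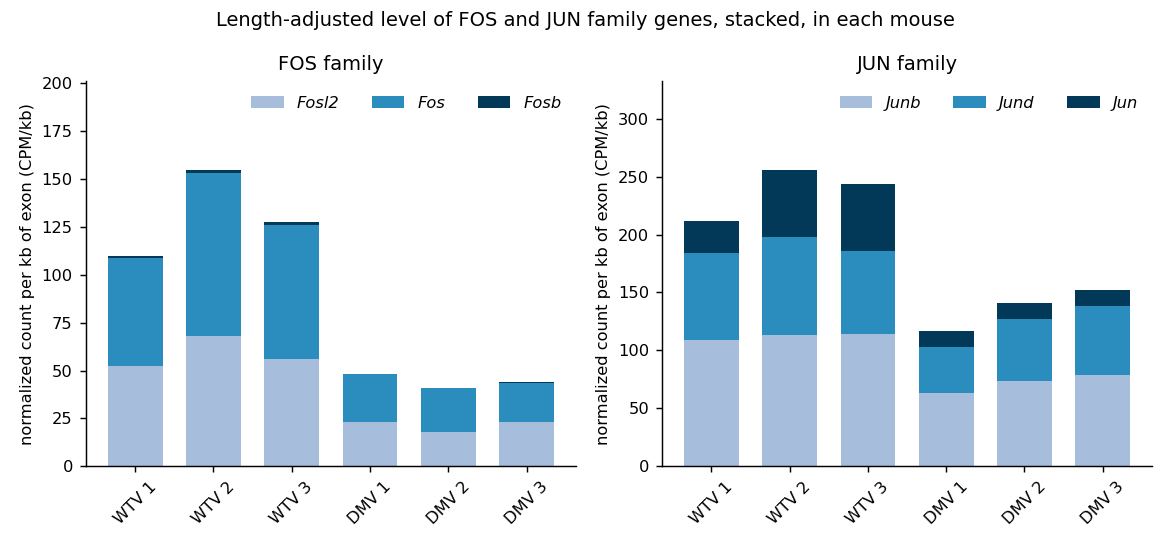
Stacked levels (CPM per kb of exon, vertical axis from 0) of the FOS genes (left) and the JUN genes (right) in each mouse, with 1 bar per mouse and 1 shade per gene. FOS sums reach 109.7 to 154.8 in WTV and 41.08 to 48.28 in DMV, and the segment for *Jun* is shorter in the 3 DMV mice and in WTV mouse 1 than in WTV mice 2 and 3.

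Other genes of the AP-1 family were the JDP, BATF, ATF and MAF leucine zipper genes and *Fosl1*. Of 14 listed, 13 were in the table and 9 were tested. None rose, 7 fell and 2 did not pass the test, with a median log2 fold change of -0.52. *Jdp2*, which represses AP-1 by pairing with JUN, fell most. It measured 1.999, 3.21 and 4.195 CPM in WTV and 0.235, 0.371 and 0.332 CPM in DMV (log2 fold change -3.30 ± 0.44, adjusted p = 0.0008757, edgeR). *Maf*, a large MAF factor, measured 754.4, 685.8 and 534.1 CPM in WTV and 182.6, 147.1 and 218.9 CPM in DMV (-1.85 ± 0.18, adjusted p = 0.0002855, edgeR), without overlap. *Maff*, *Mafk*, *Mafg* and *Atf2* fell by 0.94 to 0.42 on the log2 scale. Of these, *Maff* kept its call under all 13 alternatives, *Mafk* lost it under 1, and *Mafg* and *Atf2* lost it under 6 each. *Batf2* (0.03) and *Atf7* (-0.47) did not pass. *Mafa*, named after its values were seen, went the other way. It had no count in any WTV mouse and 19, 5 and 12 counts in the DMV mice, and did not pass the filter of the main fit. Under the alternatives it was tested in 6 and called higher in all 6 (log2 fold change 5.95 to 6.94, adjusted p 0.00135 to 0.02502, edgeR or DESeq2).

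Immediate-early genes outside AP-1 moved in both directions. Of 42 listed, 33 were tested, 12 fell, 3 rose and 18 did not pass, with a median log2 fold change of -0.41. Across all tested genes 17.0% fell and 19.7% rose. *Sgk1*, a serum-inducible and corticoid-inducible kinase, measured 91.47, 65.93 and 80.62 CPM in WTV and 9.06, 7.096 and 21.64 CPM in DMV (log2 fold change -2.66 ± 0.43, adjusted p = 0.004761, edgeR). *Gadd45g*, a stress-response gene, fell from a mean of 17.37 to 3.097 CPM (-2.49 ± 0.36, adjusted p = 0.001539, edgeR). *Nr4a2*, an orphan nuclear receptor, fell from 5.629 to 2.047 CPM (-1.45 ± 0.33, adjusted p = 0.01016, edgeR). *Klf6*, *Pim1*, *Gadd45a*, *Nfkbia*, *Sik1*, *Zfp36*, *Mcl1*, *Btg2* and *Ier5* fell by 1.43 to 0.53 on the log2 scale. Of these, *Ier5* lost its call under 7 of the 13 alternatives, *Sik1* under 5, *Nfkbia* under 3 and *Btg2* under 1.

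The 3 that rose were *Myc*, *Phlda1* and *Ppp1r15a*. *Myc*, which is also a target of β-catenin and TCF, measured 0.417, 1.904 and 2.527 CPM in WTV and 18.64, 15.54 and 20.98 CPM in DMV (log2 fold change 3.53 ± 0.52, adjusted p = 0.002335, edgeR). *Phlda1* rose from a mean of 21.31 to 41.43 CPM (0.96 ± 0.25, adjusted p = 0.01935, edgeR). *Ppp1r15a*, which restores translation after stress, rose from 6.585 to 10.67 CPM (0.70 ± 0.20, adjusted p = 0.0269, edgeR). Of the 13 alternatives, *Myc* was called in all, *Phlda1* in 10 and *Ppp1r15a* in 9. *Egr2* and *Egr3*, the relatives of *Egr1*, averaged 0.260 and 0.141 CPM in WTV and 0.297 and 0.236 CPM in DMV and were not tested.

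**Figure D4:**
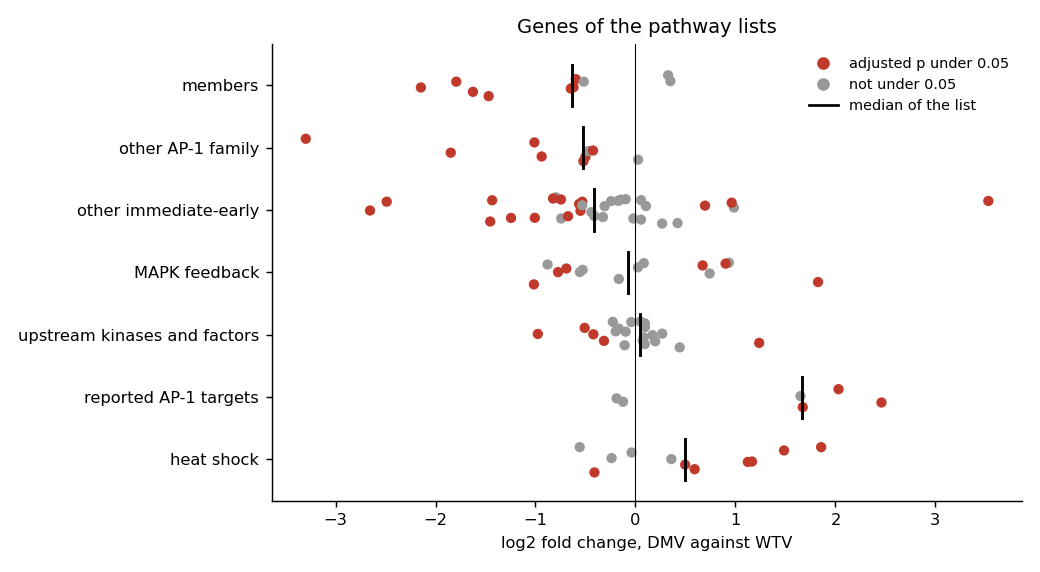
Log2 fold change of DMV against WTV (horizontal axis) for every tested gene of the members and of 6 further lists (rows), with genes called at an adjusted p under 0.05 in red, others in grey, and the median of each list as a black bar. Medians run from -0.63 for the members to 1.66 for the reported AP-1 targets, and the outlying point at 3.53 is *Myc*.

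Of 21 kinases and transcription factors that induce immediate-early genes, 1 rose, 4 fell and 16 did not pass, with a median log2 fold change of 0.05. The 5 calls stand beside 36.8% of all tested genes, and that difference was not tested. Scaling by library size alone gave 3 higher and 1 lower. *Elk1*, a ternary complex factor, rose from a mean of 0.719 to 1.708 CPM (1.24, adjusted p = 0.04238, edgeR), and this call was lost under 9 of the 13 alternatives (adjusted p 0.02497 to 0.1497). *Rps6ka5*, which encodes the kinase MSK1, fell most (-0.98, adjusted p = 0.003847, edgeR) and was called under all 13 alternatives. *Elk4* (-0.51) and *Map2k1* (-0.42) were lower as well, and lost their calls under 1 and 3 alternatives, each time including library size alone. *Mapk8*, which encodes the kinase JNK1, was the weakest call (-0.32, adjusted p = 0.04199, edgeR) and was lost under 10 of the 13 (adjusted p 0.0298 to 0.3954). *Srf* measured 44.51 ± 2.83 CPM in WTV and 47.14 ± 4.83 CPM in DMV, and *Creb1* 28.83 ± 0.82 and 29.83 ± 0.75 CPM, and neither passed the test. When any 1 mouse was left out, 2 to 4 of these genes were called.

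Of 14 tested MAP kinase feedback genes, 3 fell, 3 rose and 8 did not pass (median log2 fold change -0.07), a share called near the 36.8% of all tested genes. The genes that fell were the phosphatase genes *Dusp5* (-1.02, adjusted p = 0.002768), *Dusp16* (-0.77, adjusted p = 0.005985) and *Dusp6* (-0.69, adjusted p = 0.04967, edgeR). *Dusp6* lost its call under 8 of the 13 alternatives (adjusted p 0.006976 to 0.1494), and *Dusp5* and *Dusp16* under none. The genes that rose were the inhibitor genes *Spry4* (1.83, adjusted p = 0.01734), *Spred1* (0.90, adjusted p = 0.01304) and *Spry2* (0.67, adjusted p = 0.01243, edgeR). Each of these lost its call when a particular mouse was left out, *Spry4* without DMV mouse 1, *Spred1* without WTV mouse 2 and *Spry2* without DMV mouse 3 (adjusted p 0.0621, 0.05116 and 0.05442). The direction did not follow the kind of gene throughout. The phosphatase gene *Dusp4* was higher in every DMV mouse (0.74, adjusted p = 0.05277, edgeR) and was called higher under 5 of the 13 alternatives, and the inhibitor genes *Spry1* (-0.56) and *Spred3* (-0.88) had negative values that did not pass.

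Of 12 genes reported as AP-1 targets, 6 were tested, 3 rose, none fell and 3 did not pass (median log2 fold change 1.66). *Ccnd1*, the G1 cyclin, measured 2.291, 5.059 and 3.791 CPM in WTV and 19.34, 23.56 and 18.08 CPM in DMV (2.46 ± 0.28, adjusted p = 0.0004648, edgeR). *Cd44*, a cell adhesion receptor, measured 2.583, 4.134 and 3.740 CPM in WTV and 15.44, 13.22 and 13.95 CPM in DMV (2.03 ± 0.22, adjusted p = 0.000353, edgeR). Both are also known targets of β-catenin and TCF. *Hmox1*, the inducible heme oxygenase, rose as well (1.67 ± 0.45, adjusted p = 0.0189, edgeR), but not without DMV mouse 2 or DMV mouse 3 (adjusted p over the alternatives 0.002982 to 0.07263). *Mmp7*, also listed among the Paneth markers, measured 0.083, 7.29 and 11.27 CPM in WTV and 12.02, 24.81 and 21.22 CPM in DMV. It was called higher only without WTV mouse 1 (adjusted p = 0.03803, edgeR), where 4 targets rose and none fell. *Mmp9*, *Mmp13* and *Timp1* were too low to test.

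The levels of stress genes and of cell type markers were measured beside the members, since handling and the mix of cells can differ between preparations. Among 11 tested heat shock genes, 6 rose, 1 fell and 4 did not pass (median log2 fold change 0.50). *Hsph1* rose from a mean of 10.14 to 36.66 CPM, *Hspe1* from 22.97 to 64.43 and *Hsp90ab1* from 204.3 to 458.2. *Dnajb1* fell (-0.41, adjusted p = 0.02106, edgeR) and lost its call under 6 of the 13 alternatives (adjusted p 0.01211 to 0.181), as did the rise of *Hsp90aa1* under 5 (adjusted p 0.009757 to 0.107). The most stress-inducible genes, *Hspa1a* (0.36) and *Hspa1b* (-0.56), did not pass, although *Hspa1b* was called lower without WTV mouse 1 (adjusted p over the alternatives 0.04416 to 0.4262). The part of handling in the members' values was not tested.

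Villus tip genes fell with the members. Of 7 tested, 6 fell and *Creb3l3* (-0.01) did not pass, with a median log2 fold change of -2.53. The fall of *Egfr* (-0.81, adjusted p = 0.04356, edgeR) was lost under 8 of the 13 alternatives (adjusted p 0.002291 to 0.1392), and its groups overlapped. *Klf4*, a transcription factor of differentiated villus cells, measured 593.2, 581.9 and 616.1 CPM in WTV and 90.18, 103.0 and 117.2 CPM in DMV. Summed over the list, the range was 11760 to 15040 CPM in WTV and 4220 to 5001 CPM in DMV. Most of these sums came from *Apoa4* (7209 to 11100 CPM in WTV and 3429 to 4047 CPM in DMV), which is also among the enterocyte markers. Of 12 enterocyte markers, 8 fell and 1 rose, with sums of 51600 to 60170 and 31760 to 35580 CPM, and the 3 others did not pass. The rise, that of *Fabp1*, was lost under 6 of the 13 alternatives and the fall of *Apoa1* under 5. The part of these cells in the fall of the members was not tested.

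Of 8 crypt stem markers, 5 rose and none fell, with sums of 50.03 to 143.7 CPM in WTV and 322.6 to 418.3 CPM in DMV, and 6 rose without WTV mouse 1. *Lgr5* lost its call without DMV mouse 1 and *Smoc2* without DMV mouse 1 or DMV mouse 2. All 7 tested tuft markers fell, and the list summed to 147.8 to 213.4 CPM in WTV and 15.54 to 16.76 CPM in DMV. Of 8 enteroendocrine markers, 6 fell and 1 rose (230.3 to 328.7 against 102.1 to 112.1 CPM), and 7 fell without WTV mouse 1. Of 8 goblet markers, 1 rose, and of 7 tested Paneth markers none was called. The goblet sum was 4669 to 5064 CPM in DMV, between WTV mouse 1 and the other WTV mice. Paneth markers summed to 8.123, 956.1 and 1595 CPM in WTV and 390, 976.1 and 823.2 CPM in DMV, so that WTV mouse 1 was again the lowest. Without this mouse, 5 goblet markers were lower and 1 higher of 8, and 3 Paneth markers were lower and 2 higher of 8. *Fos*, *Fosl2*, *Jun* and *Junb* were called with and without this mouse.

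Immune and stromal cells also express AP-1 genes. Of 9 tested lymphocyte markers, 2 fell, *Ptprc* (-1.29) and *Cd8a* (-0.92), the latter losing its call under 4 of the 13 alternatives. The 12 listed summed to 95.89, 197.9 and 187.6 CPM in WTV and 86.14, 94.06 and 126.6 CPM in DMV. The lymphocyte sum of WTV mouse 1 lay within the range of the DMV mice. This mouse was also the lowest of its group for 8 members, but its member sum of 1026 CPM stayed above those of all DMV mice (549.1 to 621 CPM). Without WTV mouse 1, 8 of the 9 lymphocyte markers were called lower (median log2 fold change -1.26), beside 8 members lower. Myeloid markers (2 of 10 tested, none called) summed to 4.457 to 5.509 CPM in WTV and 6.384 to 8.496 CPM in DMV. Stromal and endothelial markers (2 of 12 tested, none called) summed to 4.457 to 7.683 CPM in WTV and 4.984 to 9.013 CPM in DMV, most of it from *Tagln* (85 to 145 counts per mouse). The collagen genes *Col1a1*, *Col1a2* and *Col3a1* had at most 8 counts in any mouse, and the muscle genes *Acta2* and *Des* had 40 and 35 counts in DMV mouse 1, 8 and 1 in DMV mouse 2, and at most 3 in the other mice. The part of lymphocytes in the members' values was not tested.

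The 5 genes outside the lists whose pattern over the 6 mice lay nearest to the mean standardised pattern of the 10 members were *Tbc1d20*, *Rqcd1*, *BC016579*, *Gm5417* and *Slco3a1*. Their Euclidean distances ran from 0.758 to 0.779 on log2 CPM standardised per gene, with log2 fold changes from -0.30 for *Tbc1d20* to -0.74 for *Slco3a1*. These genes share the libraries with the members, and the likeness is a description over 6 mice.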

How the data were processed

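Per the labels and the study's methods, the epithelium was released with EDTA (0.5 mM in steps of 10 min per the labels, a higher concentration and a longer incubation in the methods), and reads were aligned to mm9 with HISAT2 and counted with featureCounts. The authors deposited the counts as integers for each mouse, neither normalized nor pooled. Strand setting and the rule for reads matching several genes are not given in the sources used here. Of 20073 Ensembl identifiers, 20032 matched GENCODE's mm9 annotation, the source of symbols and exon lengths. Unnamed transcripts held 0.214 to 0.27% of counts and remained in the fit.

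Here edgeR 4.0.16 (R 4.3.3) was used for the filter (filterByExpr), TMM factors and the quasi-likelihood test (glmQLFTest after a robust glmQLFit), after the scripts were tested on simulated data. No libraries were duplicates. Labels call replicates separate mice. The members and the gene lists were chosen with earlier results of these data known. Named genes are all members, in each pathway list up to 3 called genes with the largest rise and fall, genes nearest in role, the 5 nearest patterns and *Smad4*. Others were chosen after their values were seen. A gene that this rule names is not reported here. Alternatives were RLE factors, library size alone, DESeq2 1.42.0, 2 other filters (no filter, or at least 10 counts in 3 mice), a replicate block, sex as a term and each mouse left out in turn.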

Additional observations from a re-analysis of the deposited data

How the results depend on the processing

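None of the 10 members changed the sign of its fold change under the 13 alternatives. The number of members called was 7 under each of the 7 alternatives other than leaving out a mouse. With library size alone, 6 of them were lower and 1, *Ier2*, was higher, while *Jund* lost its call. When a mouse was left out, 6 to 9 members were called (6 without WTV mouse 2, 9 without WTV mouse 1). Leaving out a mouse gave 6 to 7 called genes of the other AP-1 family, 11 to 17 other immediate-early genes, 4 to 6 MAP kinase feedback genes, 2 to 4 upstream kinases and factors (2 without DMV mouse 3, 3 without WTV mouse 1, WTV mouse 2, DMV mouse 1 or DMV mouse 2, against 5 with all mice), 2 to 4 reported AP-1 targets and 5 to 8 heat shock genes. Scaling by library size alone turned the upstream calls from 1 higher and 4 lower to 3 higher and 1 lower, and it left 4 of the 7 calls in the other AP-1 family, where the median of all tested genes was 0.22 instead of 0.02. In the other AP-1 family, 1 call was higher without WTV mouse 1, WTV mouse 2, WTV mouse 3 or DMV mouse 2. Upstream genes called numbered 3 with sex as a term and 3 with the replicate block. Same-numbered mice, which are of the same sex, did not deviate together (correlations 0.0224, -0.109 and 0.0123). These values gave no sign of a pairing by number, but they cannot exclude one. With the block, 7 members were called, and 3834 genes in all against 4905. Over all genes, leaving out 1 mouse gave 3442 to 5144 calls. With 3 mice a group, the interval of *Egr1* covers both a rise and a fall, and depth limits *Fosb*, at 15 to 33 counts in DMV, more than the other members.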
